A study of Mus musculus with 12 samples.

Results

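The paraoxonase genes Pon1, Pon3 and Pon2 form a small cluster on mouse chromosome 6. Nrf2 peaks were taken from a window of 220000 bp, chromosome 6 from 5.08 to 5.30 Mb of the mm9 build, which was drawn to hold this cluster and a peak noticed for its high rank in 1 genotype. All peaks overlapping the window were kept. There were 8 peaks of 8644 in the 6 deposited lists, and they merged into 2 regions of 4147 in all when peaks overlapping by at least 1 bp were joined. Because the window was chosen from the order of the peaks in these same lists, the comparisons of genotypes at this locus are descriptions and were given no test.

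Chromatin immunoprecipitation with sequencing (ChIP-seq) was done with an anti-Nrf2 antibody on peritoneal macrophages of 2 genotypes, labelled Wild type (WT) and Nrf2(AY/AY) (AY), with 3 libraries each. The cells were collected by lavage 4 days after an injection of 4% thioglycolate broth into mice 7 to 8 weeks old, and all were exposed to 100 µM diethyl maleate, an electrophile, for 4 hours. No group without diethyl maleate was compared here, and the peaks have no background beside them, as the 6 inputs were not analysed here. The labels do not say that each library came from a separate animal, and the cell identity rests on the label, since peak lists give no marker expression. The lists held 826 to 2154 peaks, with median scores of 88.8 to 118.8. The score is the authors' own value for each peak, from 50 at the lowest to 3100 at the highest, and was read as -10 log10 of the caller's p-value. How deeply each library was sequenced is unknown.

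Paraoxonases are lactonases, enzymes that open the ring of lactones. Pon1 is best known as a liver product carried in blood on high-density lipoprotein, where it protects lipids from oxidation. Pon2 is an enzyme inside cells of many tissues, macrophages among them. Nrf2, encoded by Nfe2l2, is a transcription factor that pairs with small Maf proteins and binds antioxidant response elements after electrophilic stress. The AY allele is known to change an alanine of its DNA-contacting basic region to the tyrosine that small Maf proteins carry there.

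In the RefSeq gene table of GRCm38.p6 the protein-coding genes run in the order Ppp1r9a, Pon1, Pon3, Pon2 and Asb4. That build is not mm9, so this order is given without positions, and whether either region lies in a gene, an intron or a promoter was not determined. The letters of the 2 regions themselves were not read for the same reason. The start-proximal sequence of each paraoxonase gene is shown instead, as the DNA of the locus in which a binding element could be looked for. Each line gives the 250 bases before the gene's start in RefSeq (GRCm38.p6, gene on the minus strand), 5′ to 3′ along the gene. Capitals mark a match to TGANNNNGC (N is any base), a loose pattern searched here for the antioxidant response element core.
Pon1: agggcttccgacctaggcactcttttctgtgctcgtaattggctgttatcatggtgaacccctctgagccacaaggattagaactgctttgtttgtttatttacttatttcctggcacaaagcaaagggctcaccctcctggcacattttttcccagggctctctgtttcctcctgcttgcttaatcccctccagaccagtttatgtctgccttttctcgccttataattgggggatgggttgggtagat
Pon3: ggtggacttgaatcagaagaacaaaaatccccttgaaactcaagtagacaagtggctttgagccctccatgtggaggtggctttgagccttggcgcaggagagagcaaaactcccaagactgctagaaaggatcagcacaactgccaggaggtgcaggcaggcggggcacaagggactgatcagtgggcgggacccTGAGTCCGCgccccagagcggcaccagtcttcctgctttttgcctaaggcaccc
Pon2: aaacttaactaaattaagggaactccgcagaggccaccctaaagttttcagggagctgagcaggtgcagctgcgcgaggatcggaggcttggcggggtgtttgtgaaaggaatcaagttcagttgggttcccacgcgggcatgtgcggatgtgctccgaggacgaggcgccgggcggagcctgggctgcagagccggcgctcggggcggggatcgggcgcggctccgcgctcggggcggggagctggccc

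Both strands were searched. The pattern TGANNNNGC was found in 1 of the 3 sequences, that of Pon3, as TGAGTCCGC from 54 to 46 bases before the start on the gene's own strand. It occurs in 35.2% of all 32851 RefSeq promoter windows of the same length, so 1 in 3 is near that share. The AP-1 core TGAGTCA, which 4.46% of windows hold, was in none of the 3, and neither were TGAGTCAGC (0.347% of windows) and the whole palindromic Maf recognition element (1 window of 32851), both of which include TGAGTCA. TGAGTCAGC is also a case of TGANNNNGC. The Pon2 sequence had 24 CpG pairs and 65.6% G and C, against 6 and 56.8% for Pon3 and 3 and 47.6% for Pon1, where the median of all windows was 52.4% G and C. A match is a description of letters, and whether any of these windows lies under a peak is not known.

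The first of the 2 regions, chr6:5157568-5158487, was held by all 6 lists, as were 202 of all regions (4.87%). It stood near the top of every AY list. In WT it stood about midway in replicates 1 and 2 and further forward in replicate 3. In AY its peak ranked 6 of 2154 in replicate 1, 4 of 1441 in replicate 2 and 6 of 1086 in replicate 3. In WT it ranked 854 of 1604 in replicate 1, 413 of 826 in replicate 2 and 414 of 1533 in replicate 3. The ranks of the genotypes did not overlap. As a share of the list, the relative rank (0% is the strongest peak) was 0.279%, 0.278% and 0.552% in AY replicates 1, 2 and 3, and 53.2%, 50% and 27.0% in WT replicates 1, 2 and 3. The mean was 0.370% ± 0.158 in AY and 43.4% ± 14.3 in WT (SD, n = 3 each), a difference of 43.0 percentage points. WT replicate 3 placed the region further forward than the other two WT lists, yet far behind every AY list.

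**Figure D1:**
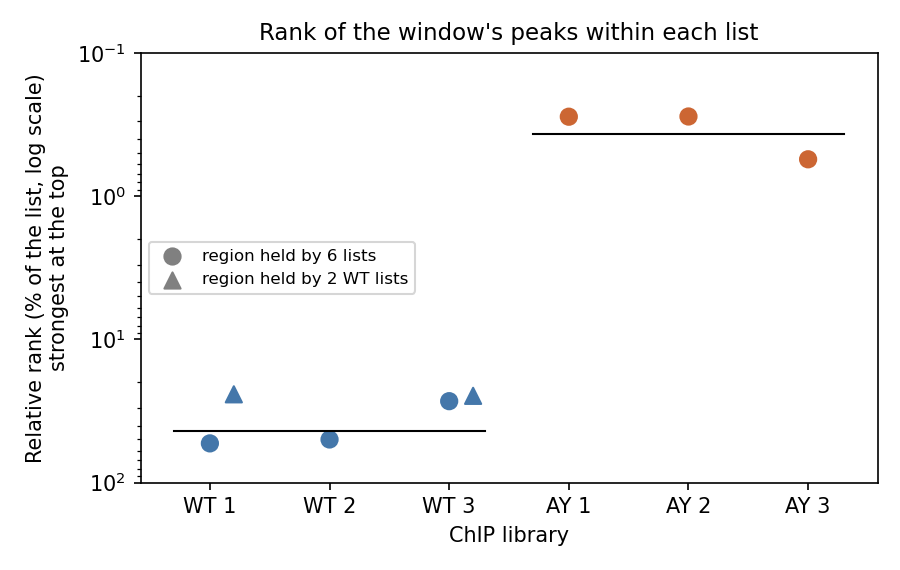
Relative rank of the window's peaks (vertical axis, % of the list on a log scale, strongest at the top) in each ChIP library (horizontal axis). Circles are the region held by all 6 lists, triangles the region held by 2 WT lists, and black lines the genotype means of the circles. The AY circles lie between 0.278% and 0.552%, and the WT circles between 27.0% and 53.2%.

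The scores behind these ranks were 2184, 2006 and 1054 in AY replicates 1, 2 and 3, where the list medians were 118.8, 102.0 and 88.8. In WT replicates 1, 2 and 3 they were 104.1, 95.6 and 137.2, beside list medians of 111.1, 95.5 and 89.5. The WT peak thus had a score near the median of its list in replicates 1 and 2 and above it in replicate 3. Scores move with depth, so no fold between lists is given. Among the peaks of chromosome 6 alone, the region ranked 3 of 142, 2 of 91 and 2 of 65 in AY replicates 1, 2 and 3, and 63 of 116, 25 of 55 and 31 of 89 in WT replicates 1, 2 and 3. These are the same scores as in the whole list, read on 1 chromosome.

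**Figure D2:**
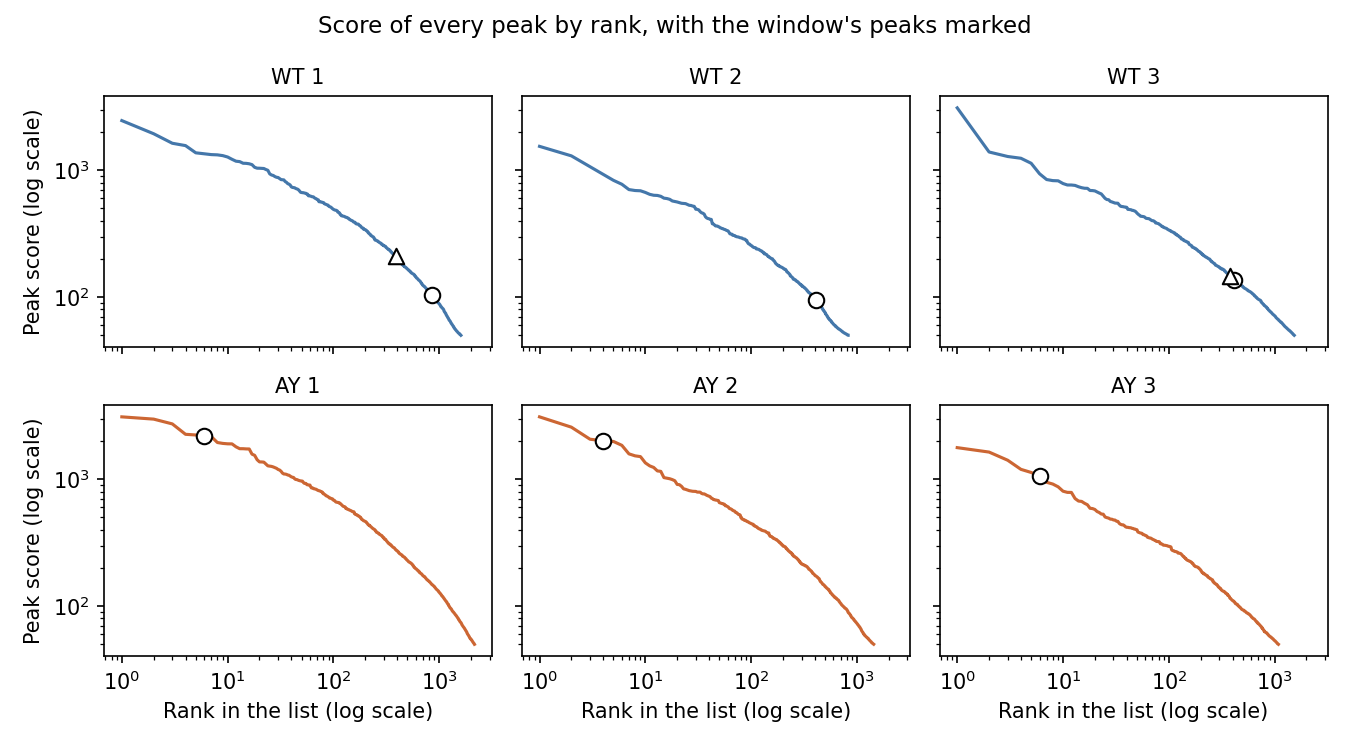
Peak score (vertical axis, log scale) against rank in the list (horizontal axis, log scale) for each of the 6 ChIP libraries, 1 panel per library, with WT in blue and AY in orange. The circle marks the region held by all 6 lists and the triangle the region held by WT replicates 1 and 3; the circle sits at ranks 4 to 6 in AY and 413 to 854 in WT.

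The peak lay at the same place in both genotypes and was wider in AY. Its widths were 919, 827 and 764 bp in AY replicates 1, 2 and 3, and 591, 496 and 561 bp in WT replicates 1, 2 and 3. These do not overlap, with means of 837 ± 78.0 bp in AY and 549 ± 48.6 bp in WT (SD, n = 3 each). The median peak of the same lists was 660, 586 and 511 bp wide in AY and 597, 508 and 549 bp in WT. The AY peaks were thus wider than their lists' medians, while the WT peaks lay within 12 bp of theirs. Every WT peak lay wholly inside every AY peak, in 9 of 9 pairs of 1 WT and 1 AY peak. All 6 peaks shared the 415 bp of chr6:5157821-5158235, and their midpoints fell within 128.5 bp of each other, at a mean of 5158059 in WT and 5158061 in AY.

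**Figure D3:**
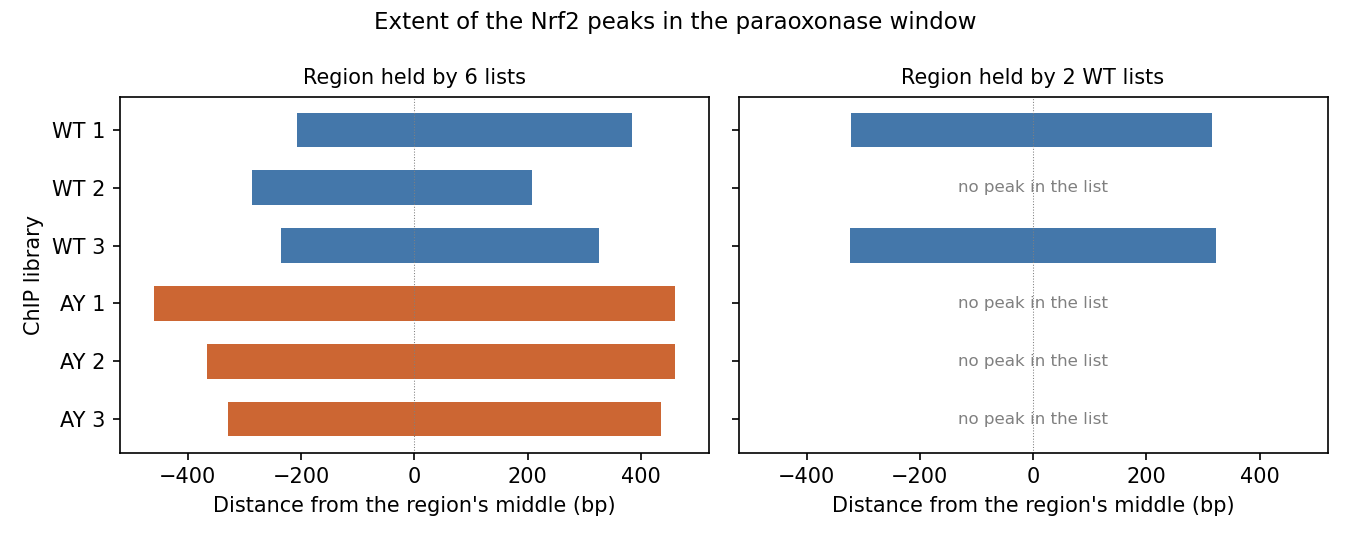
Extent of each peak in the window, as distance in bp from the middle of its merged region (horizontal axis), for the 6 ChIP libraries (vertical axis), with WT in blue and AY in orange. On the left, the 3 AY bars reach beyond the 3 WT bars on both sides, and on the right only WT replicates 1 and 3 have a bar.

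Against the other regions held by all 6 lists, 202 in all, the paraoxonase region was an extreme, which is how it came to be chosen. All 3 AY relative ranks were ahead of all 3 WT relative ranks at 42 of the 202 regions (20.8%), and all 3 WT ranks were ahead at 54 (26.7%). The difference of mean relative rank, WT minus AY, had a median of -1.96 percentage points over the 202 and ran from -75.1 to 60.5. The paraoxonase region was in place 7 by this difference and in place 1 when the relative ranks were put on a log scale, where its difference was 2.08 log10 units. The 3 AY peaks were all wider than the 3 WT peaks at 15 of the 202 regions (7.43%) and the reverse held at 12 (5.94%), and every WT peak lay inside every AY peak at 3 (1.49%). The mean width difference, AY minus WT, was 287 bp at the paraoxonase region, in place 7 of the 202, and 8.17 bp at the median region. Width and rank come from the same peaks, and how far one follows the other was not tested.

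**Figure D4:**
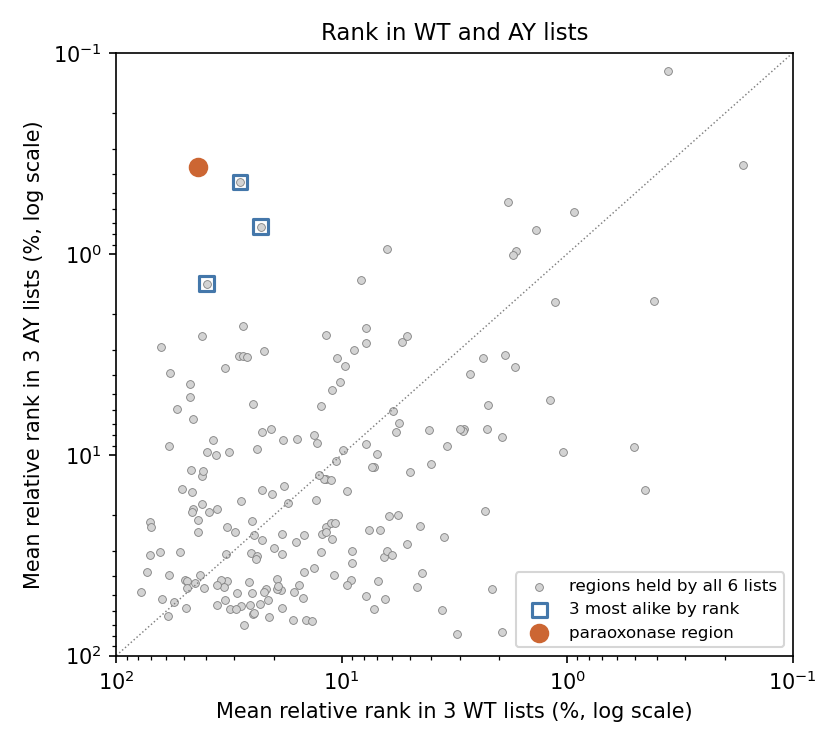
Mean relative rank in the 3 AY lists (vertical axis, %) against that in the 3 WT lists (horizontal axis, %), both on log scales with the strongest at the top and right, for the 202 regions held by all 6 lists (grey). The paraoxonase region (orange) lies at 43.4% in WT and 0.370% in AY, squares mark the 3 regions with the most similar ranks, and the dotted line is equal rank.

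The leading place of the paraoxonase peak in AY was one of few. Only 8 regions were ahead of it in 1 or more AY lists. Of these, 4 had a peak in all 3 WT lists, the first being chr10:67175526-67176537 with ranks 1, 2 and 2 in AY and 5, 3 and 6 in WT. A region on the same chromosome as the paraoxonases, chr6:122607311-122608560, ranked 2, 3 and 3 in AY and was present in 1 WT list, at rank 1176 in replicate 1. Counting chosen after the ranks were seen, 6 regions lay within the first 1% of every AY list and were also held by every WT list. Of these 6, 3 lay within the first 10% of every WT list, and the paraoxonase region was the one placed behind the first 25% in all 3. Another of the 6, chr10:53003974-53005457, missed that cut only in WT replicate 3 (27.5%, 38.1% and 19.0% in WT replicates 1, 2 and 3). The cut thus does not set the paraoxonase region apart, which was itself chosen for its ranks.

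The region most like it by rank, measured as the Euclidean distance between the log10 relative ranks of the 6 lists, was chr10:53003974-53005457, at a distance of 0.462. It ranked 4, 7 and 7 in AY and 441, 315 and 292 in WT, with mean relative ranks of 0.439% ± 0.233 and 28.2% ± 9.57 (SD, n = 3 each). The next was chr8:129387327-129388164, at 0.777, with ranks 11, 11 and 10 in AY and 340, 179 and 394 in WT. The third was chr2:164466337-164467249, at 1.07, with ranks 20, 21 and 20 in AY and 530, 352 and 664 in WT. Only the first had relative ranks that overlapped those of the paraoxonase region in both genotypes, with 0.186%, 0.486% and 0.645% in AY and 27.5%, 38.1% and 19.0% in WT. The second overlapped it in AY and lay ahead of it in WT, at 21.2%, 21.7% and 25.7%, and the third overlapped it in WT and lay behind it in AY, at 0.929%, 1.46% and 1.84%.

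The other region of the window, chr6:5270390-5271035, lay 111902 bp from the first and was called in WT lists only. It had a peak in WT replicates 1 and 3 and none in WT replicate 2 or in any AY list. Its ranks were 388 of 1604 and 380 of 1533, which are 24.2% and 24.8% of the lists, with scores of 209.6 and 146.5. In both of these WT lists it was ahead of the paraoxonase peak that leads in AY, by ranks of 388 against 854 in replicate 1 and 380 against 414 in replicate 3. The peaks of the 2 libraries were 637 and 646 bp wide, and their starts differed by 1 bp and their ends by 8 bp. A peak in exactly 2 WT lists and no AY list was found at 308 of all 4147 regions (7.43%), 253 of them (6.10%) with WT replicates 1 and 3 as the holders. WT replicate 2 has the shortest list, and the lack of a peak says only that none was called there.

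By number of peaks, the window did not favour AY. WT replicates 1, 2 and 3 had 2, 1 and 2 peaks in it and each AY library had 1, a mean of 1.67 against 1. The preference for AY at this locus therefore refers to the rank and width of 1 region, read from the same peaks, and not to the window as a whole. Neither of the 2 regions was held by all AY lists and no WT list, a pattern of 389 of all 4147 regions (9.38%), so 2 regions are too few to read anything from this.

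Outside the window, the nearest region on each side was looked up. The next region on the lower side of chromosome 6, chr6:4040350-4040886, was 1116681 bp away from the first region, and it was held by all 3 WT lists (ranks 1269, 556 and 705) and no AY list. On the upper side, chr6:6045671-6046707 was 774635 bp beyond the second region, and was held by all 3 AY lists (ranks 144, 223 and 478) and by WT replicate 1 (rank 550). Both thus lay well outside the window, so its borders decided nothing. The nearest other region of any kind was 111902 bp from the region that leads in AY, and the median over the 202 shared regions was 31756 bp. How many regions lie as far from their neighbours was not counted, so these distances do not show that the locus is unusually isolated.

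Presence of the region in WT depended on how far down the lists were read. With peaks of a score of at least 100 only, WT replicate 2 no longer held it, and with the 826 highest-scoring peaks of each list WT replicate 1 no longer held it, so that it was then in 5 of 6 lists. In both cases the 3 AY lists kept it.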

How the data were processed

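Peak lists of the 6 ChIP libraries were used. The tools named per the submitters' processing notes are MACS 1.4, Bowtie2 and bcl2fastq 2.15.0, with build mm9. The sources used here do not give the settings, the treatment of duplicates or the control of each ChIP library. Peaks came as 1 list per library, so they were not called on pooled libraries. The deposited score, with no value under 50 (a p-value of 1e-05 on the -10 log10 scale), was used to rank peaks within a list and, in 1 alternative, as a minimum of 100 applied to every list, which keeps fewer peaks where scores run lower. Starts were converted to count from 1.

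Peaks were ranked by score (1 is the highest, ties at the better rank), and rank divided by list length is the relative rank. A library held a region if a peak of its list lay in it. Regions outside the window were named by rule: the nearest on each side and the 3 most alike in rank; those ahead of the paraoxonase peak were chosen after their values were seen. Python 3.11.15, numpy 2.4.6, pandas 2.3.3 and matplotlib 3.10.9 were used. Merging and counting were tested on simulated data. The members, lists and motifs were chosen with earlier results of these data known. A planned list of lipoprotein genes was not used, as it needed mm9 gene positions, and protein sequences were not used here.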

Additional observations from a re-analysis of the deposited data

How the results depend on the processing

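Of 81 values recomputed under 14 alternatives, 73 stayed within 1 SD or 1.5 times of the reported value and 8 moved. None reversed, but only the differences in rank and in number of peaks could, as the counts have no sign. The locus was chosen by its rank difference, so the kept sign of that difference says little. With a score of at least 100, the number of regions in the window held by all 6 libraries was 0, the rank difference was 78.5 percentage points over the 2 WT lists that held the region, and all AY ranks were ahead at 17 of 100 shared regions genome-wide (17%), against 42 of 202 (20.8%) as reported. With equal list lengths the number held by all 6 was also 0. Ranking only among the 202 shared regions gave a difference of 82.7 percentage points. Leaving out each library gave differences of 38.1 (without WT replicate 1) to 51.3 (without WT replicate 3), and 42 (of 207, without AY replicate 1) to 69 regions with all AY ranks ahead. These were 59 of 205 (28.8%), 69 of 246 (28.0%) and 63 of 224 (28.1%) without WT replicates 1, 2 and 3, and 20.3%, 21.2% and 24.9% (65 of 261) without AY replicates 1, 2 and 3. Full separation is easier to meet with a list left out, so these shares are not on equal terms with the 20.8% of all 6 lists. The number of window regions held by all WT and no AY lists ranged from 0 to 1, with 1 without WT replicate 2, the region at 5270390. With the replicate number as a block, the rank difference was 43.0 (52.96, 49.7 and 26.5 for numbers 1, 2 and 3). The difference in peaks, AY minus WT, was -0.667. Each number has a library of each genotype, so these means must equal the reported differences. This alternative therefore checks nothing, although its values are counted among those that stayed. Replicate numbers were treated as names and not as pairs. Deviations of same-numbered libraries correlated at 0.0961, 0.0861 and 0.195. Differently numbered libraries were not correlated for comparison, so these values do not decide whether the numbers pair the libraries. Unknown depth limits every absence.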
